A study of Mus musculus with 11 samples.

Results

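The genes described here encode the proteins that line and serve the nuclear pore. They were taken by symbol from the array's annotation, as genes named Nup, Ipo, Kpna, Kpnb, Xpo or Tnpo with a following number (or Xpot), and Cse1l. Of the 18193 genes with a probe set of their own, 43 qualified: 19 nucleoporins and 24 transport receptors. A gene is represented by its brightest single-gene probe set, and 41 of the 43 were bright enough to test, among 13100 genes tested in all. Nup210l lay below the array median on all 11 arrays and Kpna7 reached it on 1, and neither was tested. The rule uses symbols and not measured changes. The exportin gene Xpo7 was to be set against the rest.

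The cells came from freshly isolated livers of untreated C57/Bl6 mouse embryos at E14.5, a mid-gestation stage, and were sorted by flow cytometry on Ter119, a surface antigen of maturing red cells, and CD71, the transferrin receptor. Stages R1 and R5 had 2 arrays each, R2 and R3 had 3 each, and R4 had 1. By the labels all share strain, age and tissue, and the groups are sorted fractions. In the cited scheme these run from the least mature cells in R1, low in Ter119, through CD71-rich R2 and R3, of which R3 has gained Ter119, to R5, which has lost CD71. The labels do not say how many embryos went into a sort, nor whether replicate arrays are of different litters, so a p-value here covers only array-to-array spread, which may be technical.

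Nuclear pores are rings of nucleoporins set in the nuclear envelope. The Y complex and the inner ring form the scaffold, phenylalanine- and glycine-rich nucleoporins fill the channel, and further proteins face the cytoplasm or form a basket on the nuclear side. Importins and transportins carry cargo in and exportins carry it out, and the small GTPase Ran, loaded with GTP inside the nucleus, makes importins release cargo and exportins bind it. Importin alpha proteins are adaptors that link cargo to importin beta, and the exportin Cse1l returns them to the cytoplasm. A mouse erythroblast condenses its nucleus and then expels it, and Xpo7, a broad-specificity exportin, is known to be needed for that condensation.

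Values are log2 of the deposited signal. The arrays were scaled to the same trimmed mean signal, so each value is a level relative to the other transcripts of its array, and a change is relative too. In a sorted fraction, fewer cells of a type and less RNA per cell cannot be told apart. Changes carry the standard error (SE) of a limma fit to all 11 arrays. A gene is said to have risen or fallen where its adjusted p, by Benjamini-Hochberg over all 13100 genes, was under 0.05.

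Xpo7 went the opposite way to most of the group. Its log2 signal was 11.33 and 12.42 on the R1 arrays, 10.45, 11.38 and 9.58 in R2, 14.89, 15.44 and 15.21 in R3, 15.68 on the R4 array, and 15.96 and 16.60 in R5. The R1 and R2 arrays overlapped, and every R3, R4 and R5 array lay above every R1 and R2 array. The mean was 15.18 ± 0.28 in R3 against 10.47 ± 0.90 in R2 (SD, n = 3 each), a rise of 4.71 ± 0.44, or 26.1-fold (limma adjusted p = 0.000323). It was 16.28 ± 0.45 in R5 (SD, n = 2), a rise of 5.81 ± 0.50 over R2, or 56.2-fold (limma adjusted p = 9.14e-05). Among all genes tested these rises ranked 37 and 47, and within the group they were the largest, ahead of Kpna1 at 0.99 and 1.72. Between R5 and R3 the arrays of Xpo7 did not overlap, but the change of 1.10 ± 0.50 did not pass (limma adjusted p = 0.260). The authors' deposited table gives the same log2 differences of R3 and R5 from R2 for Xpo7, 4.71 and 5.81, with p-values of 0.0147 and 0.00613.

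Set against the other 40 tested genes on the same array, with each gene centred on its mean over the 11 arrays, Xpo7 minus their median was between -2.59 and -0.94 in R1 and between -4.51 and -2.57 in R2. The difference was positive from R3 on, with 1.35 to 2.11 on the R3 arrays, 2.23 on that of R4 and 2.67 and 4.23 on those of R5. The median of the other genes was itself highest in R2, at 0.41 to 0.55, and lowest on an R5 array, at -1.17. Of 8 Xpo7 probe sets 6 were bright enough to test. All 6 were higher in R3 than in R2, by 1.84 to 5.42, and 5 passed. In R5 against R2 all 6 passed, with rises of 3.59 to 7.74 (limma, adjusted over all probe sets). Their choice was not free of the rise, since a probe set dim in R2 could enter only by being bright in other stages. The probe set with the smallest rises, 1.84 and 3.59, reached the array median on 2 arrays, with a mean of 4.19 in R2. Another, at 4.53 in R2, reached it on 6. The probe set used and a further probe set reached it on all 11 arrays. They rose by 4.71 and 5.05 in R3 and by 5.81 and 6.59 in R5.

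**Figure D1:**
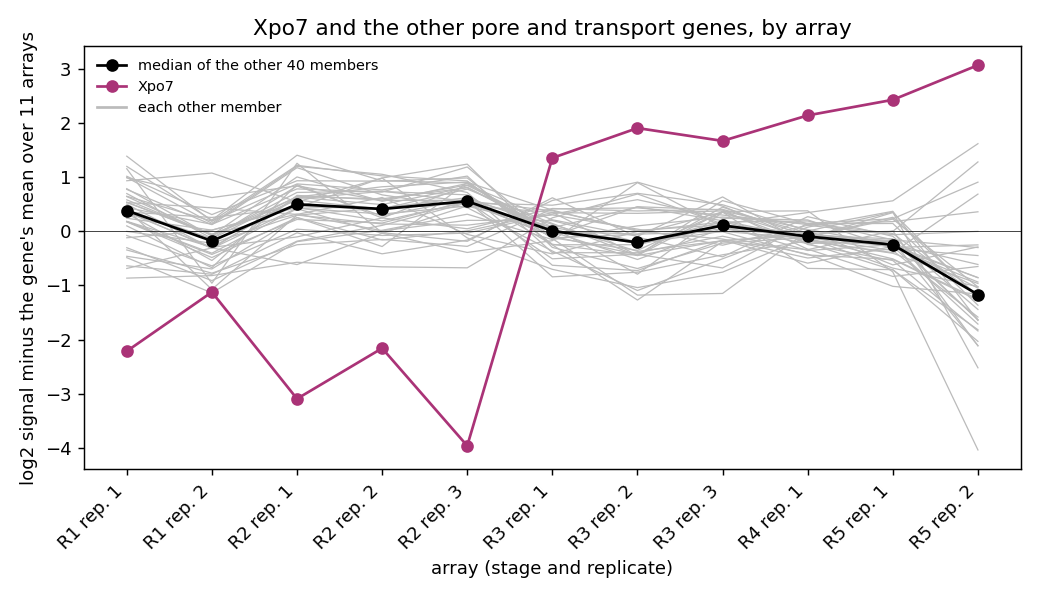
Log2 signal of Xpo7 (coloured) and of the other 40 tested genes (grey) on each of the 11 arrays, every gene centred on its own mean over the arrays, with the median of the other genes as a black line. Xpo7 minus that median is -4.51 to -0.94 on the R1 and R2 arrays and 1.35 to 4.23 on the R3, R4 and R5 arrays.

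The comparison of R3 with R2 covers the step at which cells gain Ter119. Of the 41 tested genes 2 rose and 6 fell, against 20.7% of all genes that passed in either direction, 10.6% higher and 10.1% lower. The share of the 41 that passed, 19.5%, was thus close to that of all genes. With each array centred on its median, 1 rose and 16 fell, and 3965 of the 13100 genes passed, so this closeness depended on the scaling. Without centring, 31 of the 41 changes were negative, against 7137 of the 13100 over all genes. The median change was -0.48, where that of all genes was -0.14. The R3 and R2 arrays did not overlap in 19 genes that were lower and 7 that were higher in R3. Over all genes such separation was found in 49.9%, 27.4% lower and 22.6% higher. The genes that fell came from the exportins, the transportins, the Y complex and the central channel. The count rested on the arrays used: it was 3 without R2 replicate 1 or 2 or without R3 replicate 1 or 2, 5 without replicate 3 of either stage, and 18 without either R5 array, and Xpo7 and Nup107 passed in each of these.

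Among the exportins, Xpo5 and Xpo6 fell. Xpo5, the exporter of microRNA precursors, had 8.91, 8.81 and 9.37 in R3, against 10.74, 10.59 and 10.25 in R2. Xpo6, which keeps actin out of the nucleus, had 9.17, 9.25 and 9.57 in R3, against 10.84, 10.58 and 10.58 in R2. In both genes every R3 array lay below every R2 array. Xpo5 fell by 1.49 ± 0.40 (limma adjusted p = 0.0279) and Xpo6 by 1.34 ± 0.28 (limma adjusted p = 0.0101). Xpo5 did not pass without R2 replicate 1 or 2 or without R3 replicate 1 or 2, at -1.46 to -1.38 (limma adjusted p of 0.0748 to 0.101), and Xpo6 not without R2 replicate 1 (-1.25, limma adjusted p = 0.0531). Xpo1, the main exporter of proteins with a leucine-rich export signal, had 12.71, 13.26 and 13.20 in R3, against 13.24, 13.00 and 13.34 in R2. Its arrays overlapped and its change was -0.14 ± 0.24 (limma adjusted p = 0.688).

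Of the 3 transportins, Tnpo1 and Tnpo3 fell, both importers of RNA-binding proteins. Tnpo1, whose cargo includes splicing and messenger RNA packaging proteins, had 9.71 to 10.05 in R3, against 11.29, 11.73 and 10.63 in R2, a fall of 1.30 ± 0.37. Tnpo3, the importer of serine- and arginine-rich splicing factors, had 9.67, 9.75 and 9.50 in R3, against 10.89, 10.92 and 10.72 in R2, a fall of 1.20 ± 0.35. The limma adjusted p was 0.0349 and 0.0348, and the stages did not overlap in either gene. Tnpo2, a close relative of Tnpo1, had 10.14, 10.36 and 10.15 in R3, against 9.47, 9.77 and 10.18 in R2, and its change of 0.41 ± 0.30 did not pass (limma adjusted p = 0.316). For Tnpo1, 1 of 3 probe sets showed no fall, with a change of 0.088. Tnpo3 did not pass without any 1 of the R2 or R3 arrays (limma adjusted p of 0.0508 to 0.107), nor Tnpo1 without any 1 of them other than R2 replicate 3 (limma adjusted p of 0.0617 to 0.126).

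Of the nucleoporins, Nup107 and Nup54 fell. Nup107, a core subunit of the Y complex, had 10.28, 10.28 and 10.59 in R3, against 11.55, 11.44 and 11.70 in R2, a fall of 1.18 ± 0.25 (limma adjusted p = 0.0114). Nup54, a channel protein bound to Nup62, had 10.73, 10.34 and 10.80 in R3, against 11.46, 12.01 and 12.26 in R2, a fall of 1.29 ± 0.35 (limma adjusted p = 0.0292). The stages were separate in both genes, but 1 of 5 Nup54 probe sets had a change of 0.83. Nup54 did not pass without R2 replicate 2 or 3 or without R3 replicate 1 or 2 (limma adjusted p of 0.0647 to 0.107), while Nup107 passed with any 1 array left out. The 4 inner ring genes all had negative changes, with a median of -0.84, and none of them passed.

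Kpna1, an importin alpha adaptor, was the other gene that rose. It had 11.68, 12.12 and 11.57 in R3, against 10.86, 10.78 and 10.76 in R2, with no overlap. The rise was 0.99 ± 0.30, or 1.99-fold (limma adjusted p = 0.0419). All 5 Kpna1 probe sets were higher in R3, by 0.69 to 1.22, and 2 of them passed (limma, adjusted over all probe sets). It did not pass without any 1 of the R1, R2 or R3 arrays (limma adjusted p of 0.0559 to 0.150), and with each array centred on its median it was 0.59 and did not pass (limma adjusted p = 0.249). The members of the importin alpha family did not move together. Kpna2 had 14.01, 14.28 and 13.93 in R3, against 13.73, 13.62 and 13.66 in R2, and Kpna3 had 10.37, 10.44 and 10.85 in R3, against 11.28, 11.22 and 11.68 in R2. In neither did the change pass, at 0.40 ± 0.23 in Kpna2 and -0.84 ± 0.35 in Kpna3.

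**Figure D2:**
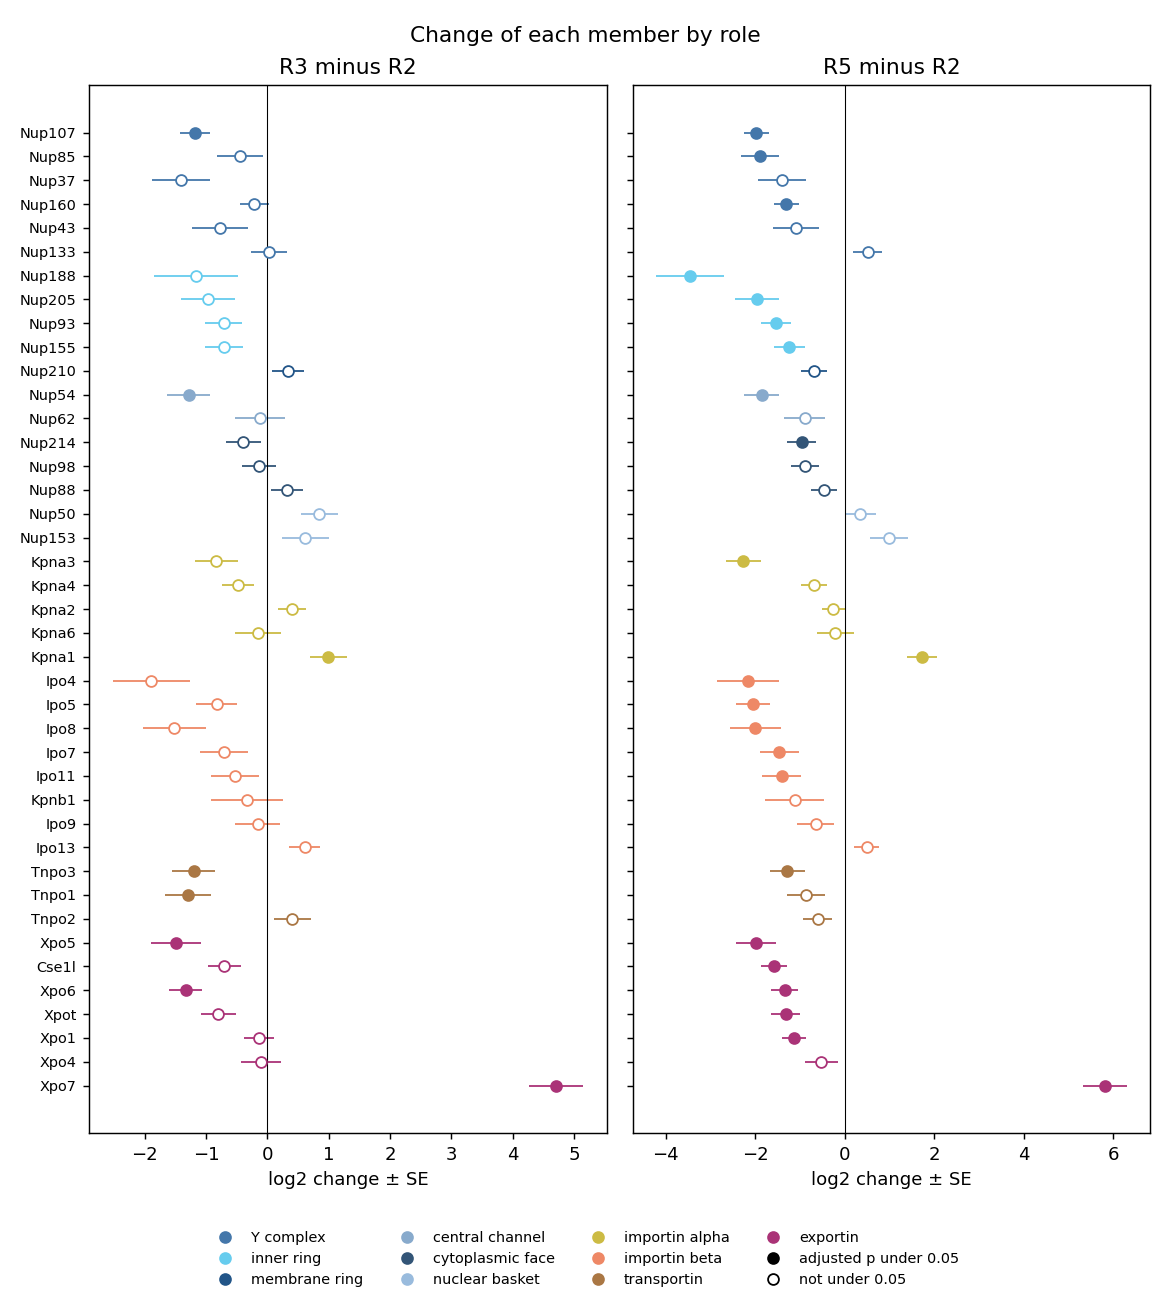
Log2 change with its SE for the 41 tested genes, R3 minus R2 and R5 minus R2, grouped and coloured by role in the pore or in transport, with filled points for a limma adjusted p under 0.05. Xpo7 stands at 4.71 and 5.81 and Kpna1 at 0.99 and 1.72, while 6 genes in the first comparison and 21 in the second are filled on the negative side.

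R5 was compared with R2 to span the course to the most mature fraction. R5 had 2 arrays, so a fit without either of them left 1 array in that stage. A call lost in such a fit is not by itself a smaller change. Of the 41 genes 2 rose and 21 fell, against 33% of all genes that passed in either direction, or 16.7% higher and 16.3% lower. With each array centred on its median, 1 rose and 34 fell, and 6279 of the 13100 genes passed. The median change was -1.13 where that of all genes was 0.00, and 35 of 41 changes were negative, against 6549 of the 13100. In 29 genes every R5 array lay below every R2 array and in 4 above, against 30.4% and 31% of all genes, or 61.3% together. The comparisons of R3 with R2, R5 with R2 and R5 with R3 share arrays and are not independent. In the authors' deposited table, 2 of the 43 genes are higher and 7 lower in R5 than in R2 at a p-value under 0.05, and in R3 against R2 only Xpo7 lies under it. Whether these p-values are adjusted is not stated. In R1 against R2 of that table Ipo11 and Nup37 have different log2 differences, -0.27 and -0.31, and the same p-value. Such ties are a feature of Benjamini-Hochberg adjusted values. For Xpo7 in R3 against R2 theirs was 0.0147, where here the adjusted p was 0.000323 and the unadjusted p 4.68e-07 (limma).

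Of the 10 scaffold genes of the inner ring and Y complex 7 fell, where 16.3% of all genes fell. Of the 2 basket genes 0 passed in either direction, where 33% of all genes passed. With only 2 basket genes, the basket cannot be set apart from the scaffold. All 4 inner ring genes fell, with changes of -3.45 ± 0.76 in Nup188, -1.96 ± 0.49 in Nup205, -1.52 ± 0.34 in Nup93 and -1.24 ± 0.35 in Nup155. Nup93 links the inner ring to the channel proteins, and Nup188 and Nup205 are its large partners. Of the 6 Y complex genes 3 fell, with changes of -1.97 ± 0.28 in Nup107, -1.89 ± 0.42 in Nup85 and -1.30 ± 0.27 in Nup160. Of the rest, Nup54 in the channel fell by 1.85 ± 0.39 and Nup214, on the cytoplasmic face, by 0.96 ± 0.32. In these 9 nucleoporins the limma adjusted p lay between 0.00105 and 0.0403. Without replicate 2 of R5 only Nup107 of them passed. The inner ring changes were then -1.81 in Nup188, -0.99 in Nup205, -1.15 in Nup93 and -0.75 in Nup155, and those of Nup85, Nup160 and Nup214 were -1.24, -1.13 and -0.66. Nup155 also did not pass without R2 replicate 1 or 3, nor Nup214 without any 1 of the R2 arrays or R3 replicate 1 or 3.

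The 9 nucleoporins tested that did not pass included the basket genes Nup153 and Nup50, with positive changes of 0.99 ± 0.43 and 0.35 ± 0.34, and Nup133 of the Y complex, at 0.52 ± 0.32. Nup153 had 12.19 and 13.47 in R5, against 11.57, 12.15 and 11.80 in R2, and its 3 probe sets disagreed, with changes of -0.89 to 1.68. For Nup62, the main channel protein, the probe set used had a change of -0.89 that did not pass, while 3 of its 5 probe sets fell and 1 was at 1.38. The membrane ring gene Nup210 had 11.85 and 11.21 in R5, against 12.04, 12.39 and 12.19 in R2. Nup98, a mobile nucleoporin that also binds chromatin, had a change of -0.88 ± 0.31, just outside the threshold (limma adjusted p = 0.0521).

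In the group, Nup188 fell furthest, and its fall depended on 1 array. With 64 added to every signal before the log2, its change was -2.58. It had 8.22 and 4.93 in R5, against 10.18, 9.99 and 9.90 in R2, so replicate 2 of R5 carried most of the fall. The 4.93 of replicate 2 lay below the median of its array, 6.75. Without that array the change was -1.81 (limma adjusted p = 0.0567), and its other probe set had a change of 0.10. The arrays of Nup107 were closer together, with 9.66 and 9.52 in R5 against 11.55, 11.44 and 11.70 in R2, 3.92-fold lower in R5 (limma adjusted p = 0.00105). Nup54 had 10.67 and 9.44 in R5, against 11.46, 12.01 and 12.26 in R2, and 1 of its 5 probe sets had a change of 1.26. Its change was -1.24 without replicate 2 of R5 (limma adjusted p = 0.0701). In all 3 genes the R5 and R2 arrays did not overlap.

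Importin beta family receptors fell in 5 of 8 cases, where 16.3% of all genes fell. Ipo5, an importer of ribosomal proteins and histones, had 11.11 and 10.01 in R5, against 12.46, 12.65 and 12.73 in R2, a fall of 2.05 ± 0.38 (limma adjusted p = 0.00401). Ipo4, which also carries histones and ribosomal proteins, had 9.92 and 7.05 in R5, against 10.97, 10.49 and 10.46 in R2, a fall of 2.16 ± 0.70 (limma adjusted p = 0.0381). Ipo8 had 9.33 and 7.21 in R5, against 10.25, 10.25 and 10.31 in R2, a fall of 2.00 ± 0.57 (limma adjusted p = 0.0238). The R5 and R2 arrays were separate in all 3, but replicate 2 minus replicate 1 of R5 was -2.87 in Ipo4 and -2.12 in Ipo8. Without replicate 2 of R5 these changes were -0.72 and -0.94 (limma adjusted p = 0.379 and 0.221). Neither passed without R2 replicate 1 or 2, nor Ipo4 without replicate 3 of R2 or R3 (limma adjusted p of 0.0513 to 0.0987). Ipo7, a partner of importin beta in the import of linker histone, fell by 1.46 ± 0.43 and Ipo11 by 1.40 ± 0.44 (limma adjusted p = 0.0273 and 0.0334). Without replicate 2 of R5 they were at -0.71 and -0.67, and neither passed, nor did either without R2 replicate 1 or 3, or Ipo11 without R2 replicate 2. Kpnb1, importin beta itself, had 12.08 and 10.73 in R5, against 13.42, 12.14 and 11.98 in R2, and Ipo9, an importer of core histones, 10.29 and 8.83 in R5, against 10.35, 10.04 and 10.23 in R2. Neither passed with the probe set used, though 2 of 4 Kpnb1 probe sets and 2 of 3 Ipo9 probe sets fell. Ipo13, which works in both directions, had 9.88 and 10.06 in R5, against 9.45, 9.55 and 9.42 in R2, with no overlap and a change of 0.49 ± 0.28 that did not pass.

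Exportins fell in 5 of 7 cases, where 16.3% of all genes fell, while Xpo7 rose. Xpo5 had 9.26 and 7.83 in R5, against 10.74, 10.59 and 10.25 in R2, a fall of 1.98 ± 0.45 (limma adjusted p = 0.0102). Cse1l, the exporter of importin alpha, had 11.39 and 10.64 in R5, against 12.55, 12.51 and 12.71 in R2, a change of -1.58 ± 0.30 (limma adjusted p = 0.00472). Xpo6 had 9.60 and 9.04 in R5, a fall of 1.34 ± 0.31 from the R2 arrays given above. Xpot, the exporter of transfer RNA, fell by 1.32 ± 0.32 and Xpo1 by 1.13 ± 0.27, with 11.97 and 12.16 in R5 for Xpo1, below all its R2 arrays. Xpo4, which exports the translation factor eIF5A, had 9.50 and 9.35 in R5, against 9.91, 9.37 and 10.56 in R2, and did not pass. Tnpo3 fell by 1.28 ± 0.39 and was the only one of 3 transportins to do so. The limma adjusted p of Xpo6, Xpot, Xpo1 and Tnpo3 lay between 0.0107 and 0.0293. Without replicate 2 of R5, Xpo5 was at -1.27, Xpo6 at -1.06 and Tnpo3 at -0.71, and none of the 3 passed (limma adjusted p = 0.0951, 0.0834 and 0.240). Xpot, at -0.92, did not pass either. Tnpo3 also did not pass without any 1 of the R2 arrays (limma adjusted p of 0.0509 to 0.0749).

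The importin alpha adaptors split. Kpna1 had 11.99 and 13.05 in R5, against 10.86, 10.78 and 10.76 in R2, a rise of 1.72 ± 0.34, or 3.30-fold (limma adjusted p = 0.00549). After centring the arrays on their medians the change was 0.78 and did not pass (limma adjusted p = 0.148), and without R5 replicate 1 or 2 it passed. Kpna3 had 9.79 and 8.46 in R5, against 11.28, 11.22 and 11.68 in R2, a fall of 2.27 ± 0.39, or 4.81-fold (limma adjusted p = 0.00304). In both the stages were separate, in opposite directions. Kpna2, Kpna4 and Kpna6 did not pass, with changes of -0.25, -0.68 and -0.21. All 5 Kpna1 probe sets were higher in R5, by 1.29 to 1.86, and 4 of them passed (limma, adjusted over all probe sets).

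**Figure D3:**
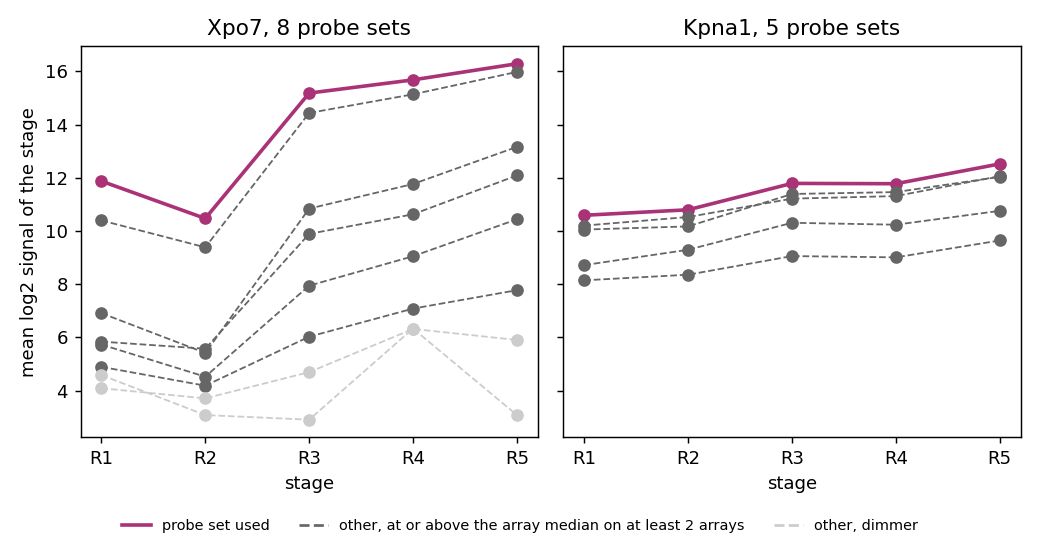
Mean log2 signal per stage for each of the 8 Xpo7 probe sets and the 5 Kpna1 probe sets. The R3 minus R2 change is 1.84 to 5.42 in the 6 tested Xpo7 probe sets and 0.69 to 1.22 in those of Kpna1, and in the 2 Xpo7 probe sets too dim to test it is 0.99 and -0.17.

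Both R5 arrays were low in most of the group, and replicate 2 was the lower. On replicate 1, 35 of 41 genes lay below their R2 mean, 29 of them below every R2 array, with a median difference of -0.67. On replicate 2, 35 lay below the mean and below every R2 array, with a median of -1.65. The single R4 array lay between R2 and R5 in this respect, with 34 genes below the R2 mean and a median of -0.59, and has no replicate. The counts by single array in this paragraph were not made over all genes, so they have no share to be set against. With each gene centred on its mean over the 11 arrays, the median of all genes tested was 0.21 on replicate 1 and -0.14 on replicate 2. That of the group without Xpo7 was -0.25 and -1.17. Replicate 2 of R5 was the lowest of all 11 arrays in 28 genes. Without it 7 genes passed in R5 against R2, the rises of Xpo7 and Kpna1 and the falls of Cse1l, Ipo5, Kpna3, Nup107 and Xpo1, and 1053 of all genes passed in place of 4321. Without replicate 1 of R5 more of the group passed than with all arrays. Leaving out either replicate leaves 1 array in R5, so the calls of both fits are less certain than the sizes of the changes.

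**Figure D4:**
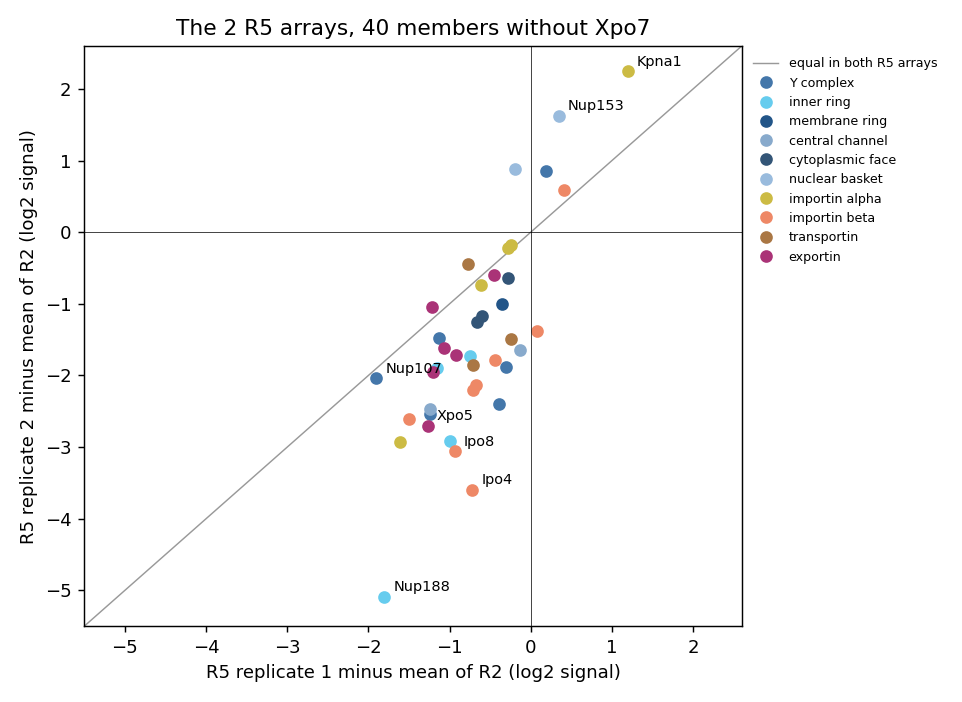
Difference of each R5 array from the R2 mean, in log2 signal, for the 40 tested genes other than Xpo7. Most points are below 0 on both arrays and lie lower on replicate 2 (median over all 41 genes -1.65) than on replicate 1 (median -0.67).

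The promoters of 3 genes that fell in R5 against R2 are shown because each holds CACGTG, the E-box word bound by Myc and related factors, and CACGTG was looked for in the whole group. The windows are RefSeq's, on mouse build GRCm38.p6, from 250 bases before to 50 after the annotated start, written 5′ to 3′ on the gene's strand with the word in capitals. The first, at chr2:30286166-30286465 on the plus strand, holds it 2 times, from positions -66 and -24 relative to the gene's start. The second, at chr5:92435150-92435449 on the minus strand, holds it from position -100. The third, at chr14:55635635-55635934 on the minus strand, holds it from position 14, downstream of the start.
Nup188: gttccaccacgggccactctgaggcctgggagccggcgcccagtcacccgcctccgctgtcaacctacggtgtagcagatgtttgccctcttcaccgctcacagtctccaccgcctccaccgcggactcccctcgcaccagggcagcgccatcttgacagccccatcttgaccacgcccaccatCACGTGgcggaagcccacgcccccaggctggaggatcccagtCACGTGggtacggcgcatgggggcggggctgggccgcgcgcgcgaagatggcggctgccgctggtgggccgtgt
Nup54: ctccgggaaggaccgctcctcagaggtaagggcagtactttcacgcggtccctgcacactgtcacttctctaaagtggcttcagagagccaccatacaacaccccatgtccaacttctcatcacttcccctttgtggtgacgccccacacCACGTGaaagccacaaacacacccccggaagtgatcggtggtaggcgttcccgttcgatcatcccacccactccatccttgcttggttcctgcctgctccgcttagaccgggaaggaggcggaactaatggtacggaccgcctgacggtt
Ipo4: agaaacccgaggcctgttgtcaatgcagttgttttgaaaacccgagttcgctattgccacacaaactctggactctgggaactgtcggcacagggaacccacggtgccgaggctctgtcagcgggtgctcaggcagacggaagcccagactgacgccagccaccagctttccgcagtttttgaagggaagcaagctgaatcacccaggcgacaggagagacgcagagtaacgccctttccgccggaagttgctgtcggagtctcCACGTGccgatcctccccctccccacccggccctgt
A promoter window was matched by symbol for 34 of the 43 genes, and Xpo7 and Kpna1 are among the others. The word, which reads the same on both strands, was in 7 of the 34 (20.6%), against 8.09% of the 27025 genes in the table. Those 27025 are all genes with a window, bright enough to test here or not. The other shares in this text are over the 13100 genes tested, so this background is an unlike set. These were Nup188, Nup54, Nup93, Ipo4, Ipo7, Xpot and Tnpo2, of which all but Tnpo2 fell in R5 against R2. Of the windows of genes that fell, 6 of 18 held the word, and of the windows of the other tested genes, 1 of 15. Without replicate 2 of R5 none of these 6 genes passed, so the split rests on that array. The letters GATA with A or T before them and A or G after them were also looked for, on either strand. They were in 5 of 34 (14.7%), against 33.0% of the same 27025 genes, and in 3 of 18 and 1 of 15 windows of the same split. A match is a description of letters in the window and not a bound site, and the shares were not tested.

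The comparison of R5 with R3 covers the course after Ter119 is gained. None of the 41 genes passed, against 0.00763% of all genes, which is 1 gene and lower in R5. In limma 14 were lower and 1 higher at an unadjusted p under 0.05, which 19% of all genes had, and with default eBayes settings the count was also 0. The count was not 0 without R5 replicate 1, which leaves 1 array in that stage. Still, 35 of 41 changes were negative, against 5473 of the 13100 over all genes. The median was -0.57 where that of all genes was 0.20. In 16 genes every R5 array was below every R3 array (13.6% of all genes) and in 1, Xpo7, above (22.8%), out of 36.4% of all genes that were separate. The smallest adjusted p was that of Nup160, a Y complex scaffold protein, which had 10.77 and 10.42 in R5, against 11.51, 11.89 and 11.64 in R3 (change -1.09 ± 0.27, limma adjusted p = 0.1001). Xpo1 was also separate between these stages, with 11.97 and 12.16 in R5, all below 12.71, 13.26 and 13.20 in R3, and a change of -0.99 ± 0.27 that did not pass (limma adjusted p = 0.121).

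The comparison of R2 with R1 covers the earliest step. None of the 41 genes passed, against 0.466% of all genes, 0.351% higher and 0.115% lower. In limma 3 were higher and 1 lower at an unadjusted p under 0.05, which 13.4% of all genes had, and with default eBayes settings the count was also 0. The changes nevertheless leaned upward: 36 of 41 were positive, with all 18 nucleoporins among them, against 6158 of the 13100 over all genes. The median was 0.39 where that of all genes was -0.05. The lean was uneven over the R1 arrays. With each gene centred on its mean over the 11 arrays, the median of the group without Xpo7 was 0.41 to 0.55 in R2. It was 0.38 on R1 replicate 1, little lower, and -0.18 on R1 replicate 2, so replicate 2 carried most of the difference. The Y complex had the highest median of the roles, 0.68. The R2 arrays lay above both R1 arrays in 18 genes (14.2% of all genes) and below them in 0 (22.1%), out of 36.3% of all genes that were separate. Xpo7 had the most negative change of the group, -1.40 ± 0.50, with overlapping arrays (limma adjusted p = 0.255).

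Over the course from R1 to R5, leaving out the single R4 array, 22 of the 41 genes differed between stages (limma moderated F-test), against 36.9% of all genes. The count was 10 without R2 replicate 1, and 11 to 14 without R1 replicate 1 or without any 1 of the other R2 and R3 arrays. The stage mean was highest in R2 for 27 genes, in R3 for 6, in R1 for 4 and in R5 for 4. The last 4 were Xpo7, Kpna1, Nup133 and Nup153. It was lowest in R5 for 29 genes, in R1 for 9, in R3 for 2 and in R2 for 1, Xpo7. Thus 27 genes had their highest mean in the stage where Xpo7 had its lowest. The counts by stage of highest and lowest mean were not made over all genes. They have no share to be set against and are not shown to be particular to the group.

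Other genes of the pore and of the Ran cycle were also counted. All 22 listed genes with a probe set were tested. In R3 against R2, 3 fell and 0 rose, where 10.1% of all genes fell, with a median of -0.27. The changes were -2.05 ± 0.49 in Ddx19b, a helicase of messenger RNA export, -1.95 ± 0.58 in Rangrf, a Ran-binding protein, and -1.20 ± 0.36 in Ndc1, which anchors the pore in the membrane. In R5 against R2, 10 fell and 0 rose, where 16.3% of all genes fell, with a median of -1.03. They included Rcc1, which loads Ran with GTP, at -3.24 ± 0.88, Ndc1 at -1.79 ± 0.41, Ranbp1, a Ran cofactor, at -1.62 ± 0.50, and Ddx19b at -1.60 ± 0.55. Rcc1 had 9.79 and 5.83 in R5, against 11.34, 10.89 and 10.93 in R2, so its fall rested largely on replicate 2. The 5.83 lay below the median of its array, 6.75. In these named falls the limma adjusted p lay between 0.0106 and 0.0453.

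Ran itself had 15.16 and 14.99 in R5, against 14.69, 14.45 and 14.73 in R2. Both R5 arrays lay above all R2 arrays, and the change of 0.45 ± 0.23 did not pass (limma adjusted p = 0.136). Ranbp17, the closest relative of Xpo7, had 5.32 and 6.42 in R5, against 6.29, 6.28 and 7.14 in R2. The stages overlapped and its change of -0.70 ± 0.57 did not pass (limma adjusted p = 0.347). In R5 against R3 and in R2 against R1 none of the 22 passed in limma, with medians of -0.59 and 0.37.

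Other features of the arrays moved with these results, and their part in them was not tested. Of 8 erythroid markers 7 were measured, and their mean log2 signal was 10.12 and 11.03 on the R1 arrays, 11.62 to 12.97 on those of R2, 14.73 to 14.94 on those of R3, 14.77 for R4 and 14.56 and 15.27 for R5. Of 8 hepatocyte markers 6 were measured, albumin and alpha-fetoprotein among them, and their mean was at most 10.31 on the R1 arrays, 8.28 to 9.49 on those of R2, 12.26 to 13.16 on those of R3, 13.14 for R4 and 12.83 and 14.31 for R5. Like Xpo7, it was lowest in R2 and higher on every R3, R4 and R5 array than on any R1 or R2 array. The 4 progenitor markers averaged 9.76 to 11.23 in R2, 8.27 to 9.66 in R3, and 11.24 and 9.44 on replicates 1 and 2 of R5, the order in which the falls were smaller and larger. The macrophage, lymphocyte and endothelial lists were also higher in R5 than in R2, at 9.52 and 9.53 against at most 8.37, 8.84 and 9.07 against at most 7.38, and 6.88 and 7.65 against at most 5.89. The means of the granulocyte, megakaryocyte and mast cell lists overlapped between R5 and R2, which does not speak for each of their genes. Within the granulocyte list, S100a8, S100a9, Ngp and Ltf were higher on both R5 arrays than on any R2 array. Elane, Prtn3 and Ctsg were lower on both than on any R2 array, and Mpo overlapped. Of 3 controls for RNA completeness, pyruvate carboxylase had a log2 excess of 3′ over 5′ signal of 0.75 to 1.84 on the R2 arrays, 2.45 to 3.29 on those of R3 and 4.62 and 2.27 for R5. The actin control did not follow it, with 0.32 to 0.79 on the R2 arrays, 0.24 to 0.83 on those of R3 and 0.43 and 0.44 for R5. For Gapdh the excess was -0.46 to -0.13 on the R2 arrays, -0.18 to -0.04 on those of R3 and 0.23 and 0.20 for R5.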

How the data were processed

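The deposited values are linear signal intensities of 45101 probe sets on each of 11 arrays. MAS5 and limma are the tools listed, per the submitters' processing notes, and versions are not given in the sources used here. The mean of each array's deposited intensity, with 2% of probe sets trimmed at each end, was 500. A second deposited table gives the authors' log2 stage means, log2 differences from R2 and p-values, and its means matched the log2 intensities. Which genome build the authors used is not given in the sources used here.

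Log2 of the intensities was used as it stands, without a pseudocount or added normalization. The probe set of 1 gene with the highest mean stood for the gene, and genes at or above the array median on at least 2 arrays were tested (limma 3.58.1 in R 4.3.3: lmFit with 1 mean per stage, eBayes with an intensity trend, 6 residual degrees of freedom). The single R4 array was assumed to vary like the others. The number of arrays limits the precision. Scripts were tested on simulated data. Probe sets that match several genes (932) were left out. Per-array values were given for Xpo7 and for up to 6 called rises and 6 called falls per comparison among genes whose stages do not overlap, and any exportin, importin alpha or transportin gene could be named. Other genes with values were chosen after these were seen. The genes, their roles and the marker lists were chosen with earlier results of these data known.

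Per the labels, RNA extraction dates go with replicate sets that are not defined. If a set is a stage, date and stage cannot be told apart.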

Additional observations from a re-analysis of the deposited data

How the results depend on the processing

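The rises of Xpo7 in R3 and in R5 against R2 kept direction and call in all 22 alternatives of each, at 3.20 to 5.42 and 4.79 to 7.74. The counts of genes that passed moved more, as did those over all genes. The latter were, in R3 against R2, 2716 in the main fit, 2140 with default eBayes and 3965 with arrays centred on their median. They were 2244 with the mean of a gene's probe sets and 3767 with only the arrays compared. In R5 against R2 they were 4321, then 6279 centred and 3779 with the mean of probe sets. In R5 against R3 they were 1, then 588 centred. The counts of the group follow. For R3 against R2 (8) the count was 4 with default eBayes, 17 with arrays centred on their median, 5 with the mean of a gene's probe sets and 19 with only the arrays compared, and 3 to 18 with 1 array left out. It was 3 without R2 replicate 1 or 2 and without R3 replicate 1 or 2, 5 without replicate 3 of either stage, and 18 without either R5 array. For R5 against R2 (23) it was 35 centred and 15 with the mean of probe sets, and 7 to 31 with 1 array left out, the 7 without replicate 2 of R5. For R5 against R3 (0) it was 6 centred, and it was not 0 without replicate 1 of R5, which leaves 1 array in that stage. For R2 against R1 it was 0 in all 22. For any stage (22) it was 12 with default eBayes, 14 with the mean of probe sets or the most variable probe set, and 10 to 31 with 1 array left out, the lowest without replicate 1 of R2.

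Centring moved the median of all genes from 0.00 to -0.94 in R5 against R2 and from -0.14 to -0.55 in R3 against R2, and gave 1 higher and 34 lower in the first and 1 and 16 in the second, against 2 and 21 and 2 and 6. No called gene changed sign under it or under quantile normalization. The replicate numbers were not taken to pair the arrays, since the labels do not settle it and not every pair of the same number in different stages deviated together. Deviations from the stage means correlated at -0.15 to 0.40 across genes in 13 such pairs, of which 10 were over 0.1, and 4 of 24 pairs of different number were over 0.1. Taking the replicate number as a block, 4197 and 4895 of all genes passed in R3 and in R5 against R2. The count of the group was 18 in R3 against R2 and 28 in R5 against R2. With the block on the arrays numbered 1 and 2 alone it was 13 and 30, and 1 in R5 against R3, where Xpo7 passed at 1.12 (limma adjusted p = 0.0411).

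With the most variable probe set, Tnpo1 in R3 against R2 was at 0.088, and Nup54 at 0.83 in R3 and 1.26 in R5 against R2. The 16 genes that did not pass in R5 against R2 without replicate 2 of R5 included Xpo5 (-1.27), Xpo6 (-1.06), Nup54 (-1.24), Nup188 (-1.81), Xpot (-0.92), Tnpo3 (-0.71), Ipo4 (-0.72) and Ipo8 (-0.94). Of 461 alternative values of genes named by the rule, 389 kept direction and call, 68 lost the call, 1 gained it and 3 turned. Kpna1 did not pass when centred, at 0.59 in R3 and 0.78 in R5 against R2. The cause was not tested.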
